A study of Nymphaea colorata and Nymphaea micrantha with 16 samples.

Results

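Gene expression in the leaves of a viviparous and a nonviviparous water lily was compared at the last of 4 leaf stages (stage 4), when the leaf has opened completely and floats. *Nymphaea micrantha* (X-species) forms plantlets on its leaves, and *N. colorata* (L-species) does not. The stages were a small rolled leaf under water (1), a larger rolled leaf under water (2), a partly unrolled leaf with its tip at the surface (3) and the unfolded leaf (4). On the unfolded leaf a viviparous mark at the leaf centre was present in the X-species. The study could see the viviparous structure from stage 2 on and found it obvious at stages 3 and 4. The comparison of stage 4 with the earlier stages is therefore not a comparison of leaves with and without it. Each species and stage had 2 RNA-seq libraries, 16 in all, so that stage 4 is X4 (2 libraries) against L4 (2 libraries). All plants were grown in 1 garden, and each sample pooled leaves of several plants. The leaves were taken with the leaf nose, the part where the plantlet forms. By the study's description, libraries of a species may have pooled the same plants. The genes described are those with at least 1 FPKM (reads of a gene divided by its length and by the library's total) in at least 2 of the 4 stage 4 libraries, which were 16665 of the 31475 genes in the table and of the 18160 genes tested over all stages.

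In viviparous water lilies a plantlet arises on the leaf at the place where the blade meets its stalk. There a shoot meristem, the group of dividing cells that makes stem and leaves, forms on a leaf. A floating leaf also meets the air as it unfolds. Its upper face is covered by a cuticle of cutin and wax, and its photosystems, complexes of chlorophyll and protein in the chloroplast membranes, collect light in full sun.

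The genes carry only the IDs of the table, and no gene name was paired with them here. What is said of a gene's role is the function that the study's annotation tables list for its ID, which is inferred from genes of other plants. No genome of these IDs was used, so no positions are given. The only sequences at hand were the study's qRT-PCR primers for 10 genes, all called different at stage 4. The pairs for the gene furthest below and the gene furthest above the L-species among those 10 are shown, 5′ to 3′, because they identify the transcripts behind the IDs.
NC1G0018370 forward: tttcgaacccatcgaaaaac
NC1G0018370 reverse: accccactaccccatctacc
NC9G0113760 forward: ttcattcctcccttctt
NC9G0113760 reverse: atggctcttgtcgtcg
NC1G0018370 was at 369 and 383 FPKM in L4 and at 0.181 and 0.563 in X4. In the earlier L libraries it lay between 77.0 and 138, and in the earlier X libraries it was at most at 1.00. The difference was present before stage 4, with log2 fold changes of −6.35 over stages 1 to 3 and −8.12 at stage 4, and the call of the change between them (−1.76) was lost with a pseudocount of 0.1 and with voom, a limma method for read counts. NC9G0113760 was listed at 0 in both L4 libraries and at 3.48 and 2.78 in X4, at least 63.6-fold higher. Its log2 fold change was 2.04 at stage 4 and 2.2 over stages 1 to 3.

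At stage 4, 40159722 and 43101999 reads were counted on genes in L4 and 27636196 and 26723284 in X4, and over all stages the ranges were 37118842 to 51396582 in L and 24815135 to 31440253 in X. A member gene had a median of 912 reads in L4 and 575 in X4, which makes the values of weakly expressed genes coarser in the X-species. The replicates of a stage 4 group were close, with Pearson's r across genes of 0.987 in L4 and 0.988 in X4 on log2(FPKM + 1), and they differed by more than sampling noise, so none was a copy of another. The replicates of X1 and X2 were further apart (SD of their log2 difference 0.528 and 0.631, against 0.320 in L4 and 0.324 in X4). The study lists more cleaned reads for X4 than for L4, although fewer were counted on genes in X4. Whether reads of X matched the counted genes less well than reads of L was not tested. In leaf samples that hold many cell types and include the leaf nose, fewer cells of a type and less RNA per cell cannot be told apart. As leaf markers, 12 genes of chlorophyll binding, photosystem I and antenna proteins were taken, none of which was at 0 in any group. All groups were leaf, so this does not test for other tissue in the samples.

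Most member genes were expressed in both species. A total of 13735 had at least 1 FPKM in all 4 stage 4 libraries, 1549 passed through the L4 libraries only, 857 through the X4 libraries only and 524 in another way. Among the members, 668 had no read in either X4 library and 211 no read in either L4 library. A low count in X4 was mostly low at every stage of the species. Of the 890 members with 3 reads or fewer in both X4 libraries, 712 also had 3 or fewer in all 8 X libraries. For L4 this held for 125 of 325. Whether such genes are silent in a species or its reads did not match them was not tested. Expression found at stage 4 of 1 species and in no other library was rare. Only 13 members had at least 1 FPKM in both L4 libraries and at most 3 reads in each of the other 14, and 3 had that pattern for X4. The 3 genes, singled out after their values were seen, were NC1G0135570, at 7.90 and 6.83 FPKM in X4, NC12G0097500, at 5.08 and 2.59, and NC2G0009270, at 2.47 and 1.84.

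The species were compared in 1 limma fit of the 16 libraries, with expression as log2(FPKM + 1). A gene is called a DEG where the p adjusted by the Benjamini-Hochberg method is under 0.05 and the species differ by 1 or more on the log2 scale. Positive values are higher in *N. micrantha*. At stage 4, 5564 members (33.4%) were DEGs, where 31.3% of all genes tested were called. Of these, 2191 were higher in X4 (12.3% of all genes tested were) and 3373 were lower (19% of all genes tested were). The same genes gave fewer DEGs at the earlier stages, with 4366 at stage 1, 4015 at stage 2 and 4720 at stage 3. Among all genes tested, the shares called there were 28%, 25.3% and 28.8%. At stages 1, 2 and 3 the members called higher in X were 1252, 1020 and 1104 (7.56%, 6.18% and 6.57% of all genes tested were), and those called lower were 3114, 2995 and 3616 (20.4%, 19.1% and 22.2%). Over the mean of these 3 stages 4017 members were called (25.2% of all genes tested were), 964 higher (5.8%) and 3053 lower (19.4%). The members were chosen at stage 4, so genes silent there are missing from the earlier counts, while the shares of all genes tested are free of that choice.

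The direction of the calls depended on how the libraries were scaled. In the deposited FPKM, 28.7%, 25.4%, 23.4% and 39.4% of the DEGs at stages 1 to 4 were higher in X. After median-ratio scaling of the libraries the shares were 39.1%, 34.8%, 36.3% and 38.7%, so stage 4 no longer stood apart from stage 1 in its direction. With limma's voom on the reads recovered from the FPKM they were 39.3%, 35.7%, 37.1% and 39.9%. Over the mean of stages 1 to 3 the share was 24.0% in the deposited FPKM, 34.6% after the scaling and 36.5% with voom. The median difference over the members, −0.20, −0.15, −0.28 and 0.00 at the 4 stages, became −0.03, −0.01, −0.05 and −0.01 with median-ratio scaling. With this scaling the stage 4 count was the greatest on both sides, with 2148 members higher in X against 1613, 1340 and 1622 at stages 1 to 3, and 3401 lower against 2516, 2513 and 2851. With voom it was 2475 higher against 1976, 1712 and 1984, and 3727 lower against 3054, 3080 and 3361. In the deposited FPKM the lower members were more at stage 3 (3616) than at stage 4 (3373).

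**Figure D1:**
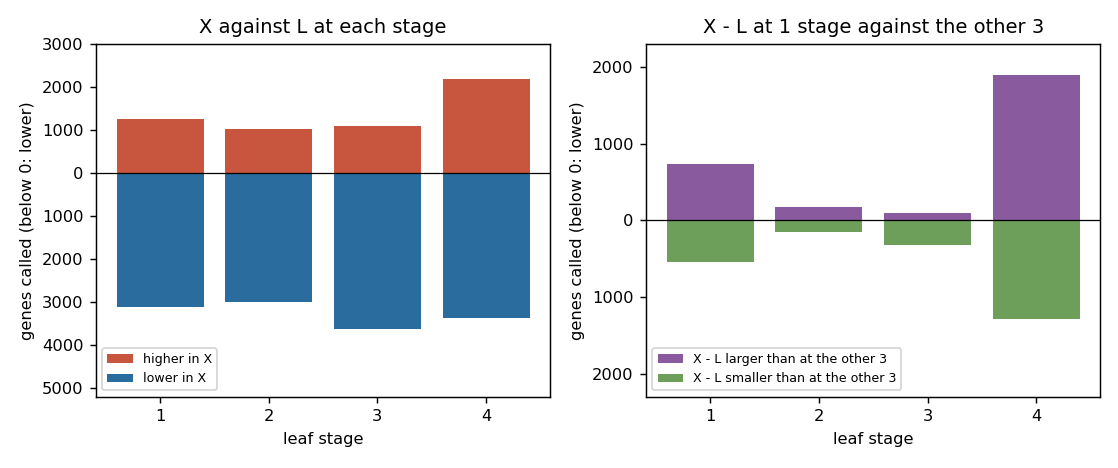
Number of member genes called by limma (adjusted p under 0.05, difference of 1 or more on the log2 scale), with calls in the positive direction above 0 and in the negative direction below it. The left panel compares X with L at each leaf stage (2191 higher and 3373 lower at stage 4), and the right panel compares the X − L difference of each stage with the mean of the other 3 (1894 and 1285 at stage 4).

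To find what set stage 4 apart, the X − L difference at stage 4 was tested against the mean of the X − L differences at stages 1 to 3. This contrast called 3179 members (19.1%, against 19.7% of all genes tested). The same contrast for another stage called 1282 members at stage 1 (8.2% of all genes tested), 333 at stage 2 (2.2%) and 414 at stage 3 (2.92%). The 4 contrasts share libraries. Toward X and toward L, stage 1 gave 737 and 545 members (4.18% and 4.03% of all genes tested), stage 2 gave 180 and 153 (1.06% and 1.14%) and stage 3 gave 96 and 318 (0.804% and 2.11%). The counts of stages 1 to 3 moved with single libraries, stage 1 to 476 without L1 replicate 2, 677 without X1 replicate 2 and 1983 without X1 replicate 1. Stage 2 moved to 108 without L2 replicate 2, 819 without X2 replicate 1, and 216 and 220 without X3 replicate 1 or 2. Stage 3 moved to 248 without L3 replicate 2, 703 without X2 replicate 1, and 107 and 81 without X3 replicate 1 or 2. The count of stage 4 stayed between 2419 (without X4 replicate 2) and 3423, above each of these.

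In 1894 of the 3179 genes the difference moved toward the X-species at stage 4 and in 1285 toward the L-species (12.5% and 7.25% of all genes tested). This split also turned with the scaling, from 59.6% toward X to 45.7% after median-ratio scaling and 46.4% with voom, and the median of this difference over all members moved from 0.23 to 0.04 and 0.05. Of the 3179 genes, 2674 were also called after the scaling and 2382 with voom. Of the stage 4 DEGs, 2040 were also called in this contrast. By the count of earlier stages, 2049 of the stage 4 DEGs were DEGs in the same direction at all 3, 613 at 2, 889 at 1 and 2013 at none, and 1333 of these 2013 were called in the contrast.

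**Figure D2:**
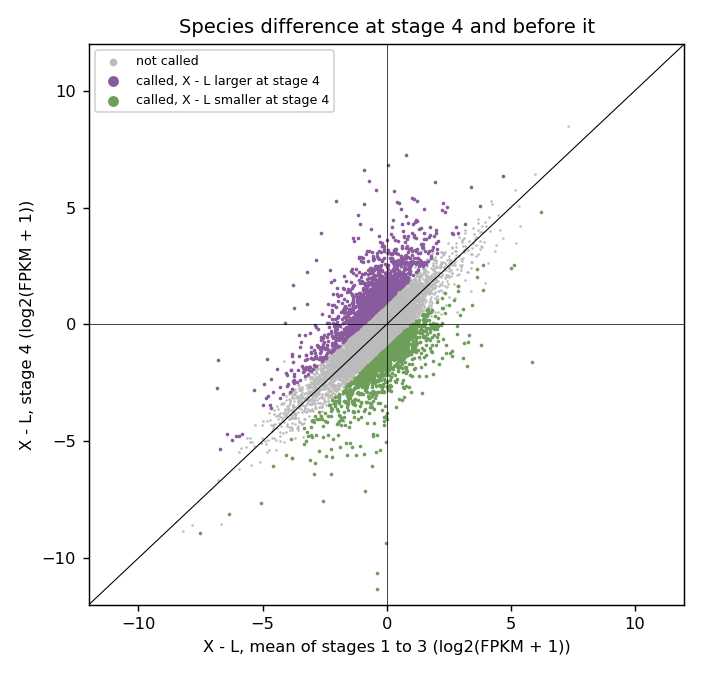
Each point is 1 of the 16665 member genes, with the mean X − L difference of stages 1 to 3 on the x axis and the X − L difference of stage 4 on the y axis, both in log2(FPKM + 1). Coloured points are the 1894 and 1285 genes whose difference at stage 4 was called unlike that of stages 1 to 3, and they lie away from the line of equal values.

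The contrast is by construction the change of X4 from the earlier X stages minus the change of L4 from the earlier L stages, and both were tested. The L-species changed in more genes. In it, 4204 members were called between stage 4 and the mean of stages 1 to 3 (26.4% of all genes tested), 2199 higher and 2005 lower at stage 4 (12.1% and 14.3%), and in the X-species 3032 (18.2%), 2004 higher and 1028 lower (11% and 7.14%). These counts also moved with the scaling. After median-ratio scaling 2484 members were higher and 1675 lower in L4, and 1822 were higher and 1162 lower in X4. Among the 1285 genes that moved toward the L-species, the change was larger in L in 78.1%, with a median change of 1.37 in L and −0.03 in X, and 876 of them were called higher in L4. Among the 1894 that moved toward the X-species, it was larger in L in 59.5%, with medians of −1.02 in L and 0.43 in X. Of these genes 961 were called lower in L4 and 614 higher in X4. Their median X − L difference went from −0.43 over stages 1 to 3 to 1.13 at stage 4. Both sets were chosen by this contrast, so the directions of their medians follow from the choice. The values of both sets are from the deposited FPKM and were not repeated after scaling. Over all members the median size of the change was also larger in L, at 0.52 against 0.39 in X.

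Among the largest differences at stage 4 were genes with reads in 1 species only. NC8G0214130, with no annotated function, was at 2436 and 2711 FPKM in L4 and had no read in any X library. Its FPKM did not pass 0.753 in any earlier L library. It was at least 12028-fold higher in L4 (limma log2 fold change −11.33, SE 0.16, adjusted p = 9.65e-13). NC8G0214140, whose ID is the next in the numbering and which has no annotated function, was at 599.8 and 718 in L4, at 0 in every X library and at most at 0.104 in the earlier L libraries, at least 1540-fold higher in L4. Whether reads of similar neighbouring genes were split between them by the counting is not known. NC2G0005110, also without annotation, was at 1182 and 3064 in L4, at 0.354 and 0.0610 in X4 and at most at 3.20 before (log2 fold change −10.63). Fitted fold changes of genes near 0 depend on the pseudocount of 1.

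Other genes low in X4 had been so at every stage. NC7G0234770 was at 502 and 410 FPKM in L4 and without a read in X4, at least 2346-fold higher in L4. NC11G0014860 fell in both species, to 3764 and 1231 in L4 and to 3.14 and 3.84 in X4, from 3556 to 7661 in the earlier L libraries and 18.9 to 45.2 in the earlier X libraries. Its difference was −8.91 at stage 4 and −7.52 before. The change of −1.39 (adjusted p = 0.0448) was lost when any 1 of 11 libraries was left out, with adjusted p up to 0.28.

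Among the genes furthest above the L-species at stage 4, NC6G0255230, annotated as a GTPase and structural part of the cytoskeleton, was at 429.5 and 399 FPKM in X4 and at 0.177 and 0.165 in L4. NC1G0131220, of the starch and sucrose pathway, was at 95.2 and 80.0 in X4 and at 0.0426 and 0.0198 in L4. For neither was the change from the earlier stages called (NC6G0255230 1.17, SE 0.99, and NC1G0131220 0.46, SE 0.61). For the other 3 it was. NC1G0181880, without annotation, was at 126 and 183 in X4 and at 0 in both L4 libraries, at least 2293-fold higher, although it was at 64.5 and 105 in L1 and at 33.5 and 5.85 in X1. Peroxidase NC2G0009810, listed under lignin synthesis, was at 149 and 185 in X4 and at 0.424 and 0.498 in L4, after 51.1 to 72.9 in the earlier X and 15.1 to 111 in the earlier L libraries. In the L-species it fell by 5.32 on the log2 scale and in the X-species it rose by 1.45. NC11G0015970, a hydrolase, was at 3111 and 1797 in X4 and at 30.7 and 17.5 in L4, and its X − L difference went from −0.93 to 6.61 (change 7.54, SE 0.58, adjusted p = 6.78e-06). For each of these 5 genes both X4 values were above both L4 values, as the X4 and L4 values of 84.5% of all members did not overlap.

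**Figure D3:**
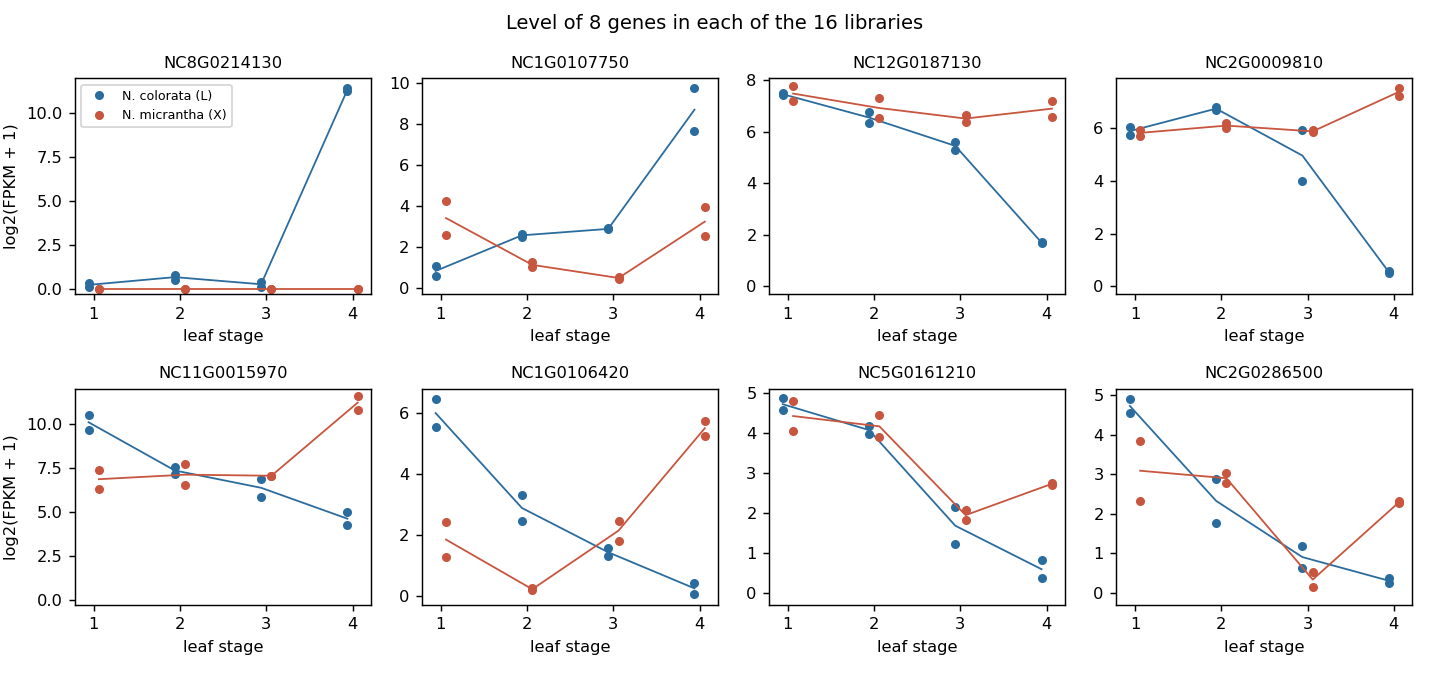
Level of 8 genes in each of the 16 libraries, as log2(FPKM + 1) against leaf stage. Points are single libraries and lines join the means of the 2 libraries of a group. NC8G0214130 is high only in L4, and the other genes part between X4 and L4.

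Besides NC11G0015970 and NC2G0009810, the genes with the largest change of the difference toward the X-species were NC1G0106420, NC1G0133610 and NC9G0111700. NC1G0106420, annotated to phloem development (phloem is the tissue that carries sugars), was at 37.2 and 52.5 FPKM in X4 and at 0.0332 and 0.348 in L4. It had been lower in X before, with 1.46 to 87.0 in the earlier L libraries and 0.126 to 4.53 in the earlier X libraries, so its difference turned from −2.04 to 5.26 (change 7.30, SE 0.48, adjusted p = 2.68e-06). It rose by 4.10 in the X-species and fell by 3.19 in the L-species. NC1G0133610, annotated to the killing of cells of other organisms, was at 97.5 and 128 in X4 and at 0.966 and 0.308 in L4 (change 6.85), and it fell by 6.32 in the L-species, while its change in X (0.53) was not called. Jasmonate-response gene NC9G0111700 was at 25.3 and 35.6 in X4 and at 0.846 and 1.30 in L4, and its change of 6.57 came with a fall of 6.04 in the L-species. Toward the L-species, NC11G0244170 was at 2909 and 920.6 in L4 and at 598.9 and 470.0 in X4, and at most at 93.0 in the earlier L libraries. It was not called at stage 4 itself (−1.62, adjusted p = 0.245), but it had been higher in X before (5.86). NC1G0089810 was at 133 and 154 in L4 and at 0 and 0.0748 in X4, with a change of −6.25.

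A total of 85 members (0.51%, against 0.468% of all genes tested) were called at stage 4 with a sign opposite to that of stages 1 to 3. In 59 the X-species was lower before and higher at stage 4 (0.325% of all genes tested), and in 26 the reverse (0.143%). Besides NC1G0106420 and NC9G0111700, the 5 genes of the first kind with the largest change were NC9G0111740, NC10G0142960 and NC11G0123120. NC9G0111740 was at 55.5 and 62.8 FPKM in X4 and at 0.914 and 1.77 in L4, after 655 to 872 in L1 and L2. NC10G0142960, an oxidoreductase, was at 8.10 and 8.18 in X4 and at 0.0648 and 0.684 in L4, and NC11G0123120, annotated to bind pyridoxal phosphate, at 6.94 and 4.27 in X4 and at 0.443 and 0.290 in L4. In each the L-species fell, by 7.01, 6.46 and 3.33 on the log2 scale, and NC11G0123120 also rose by 2.12 in the X-species. Of the second kind, NC1G0180250 was at 318 and 429 in L4 and at 160 and 73.6 in X4, while X had been higher before, with 347 to 1848 against 53.2 to 125 (change −4.98). Protease-type gene NC2G0037030 rose in both, to 28.3 and 68.2 in L4 and 4.22 and 5.72 in X4. NC2G0006900, of lipid transport, was at 7.26 and 4.59 in L4 and at 0 and 1.43 in X4, after 103 and 97.2 in X3. For NC4G0152490 (28.5 and 24.0 in L4, 4.95 and 4.63 in X4) and NC2G0053480 (59.4 and 58.7 in L4, 21.6 and 14.4 in X4) the changes were both −3.81.

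Gene groups were read from the gene ontology and KEGG tables of the study. These tables list mostly genes that the study had found different, above all in the unfolded leaf. Of 4102 listed genes, 96.5% differed at least 2-fold in mean FPKM at stage 4, against 57.7%, 57.8% and 63.5% at stages 1 to 3. Of the 3559 that were members, 83.6% were DEGs at stage 4. The counts of a group at stage 4 therefore follow from how its list was made and are not independent evidence, and a group is not the whole pathway. The difference over stages 1 to 3 uses none of the stage 4 libraries, and 40.8% of the listed members were called there. The test of the change does use the stage 4 libraries, so its counts follow from the same choice. It called 38.6% of the listed members (23.2% toward X and 15.4% toward L), against 13.8% of the 13106 members that were not listed (8.1% and 5.6%), and a count of changes in a list is likewise a description. Each median below stands beside 0.00 at stage 4, −0.21 over stages 1 to 3 and 0.23 for the change, the medians of all members.

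**Figure D4:**
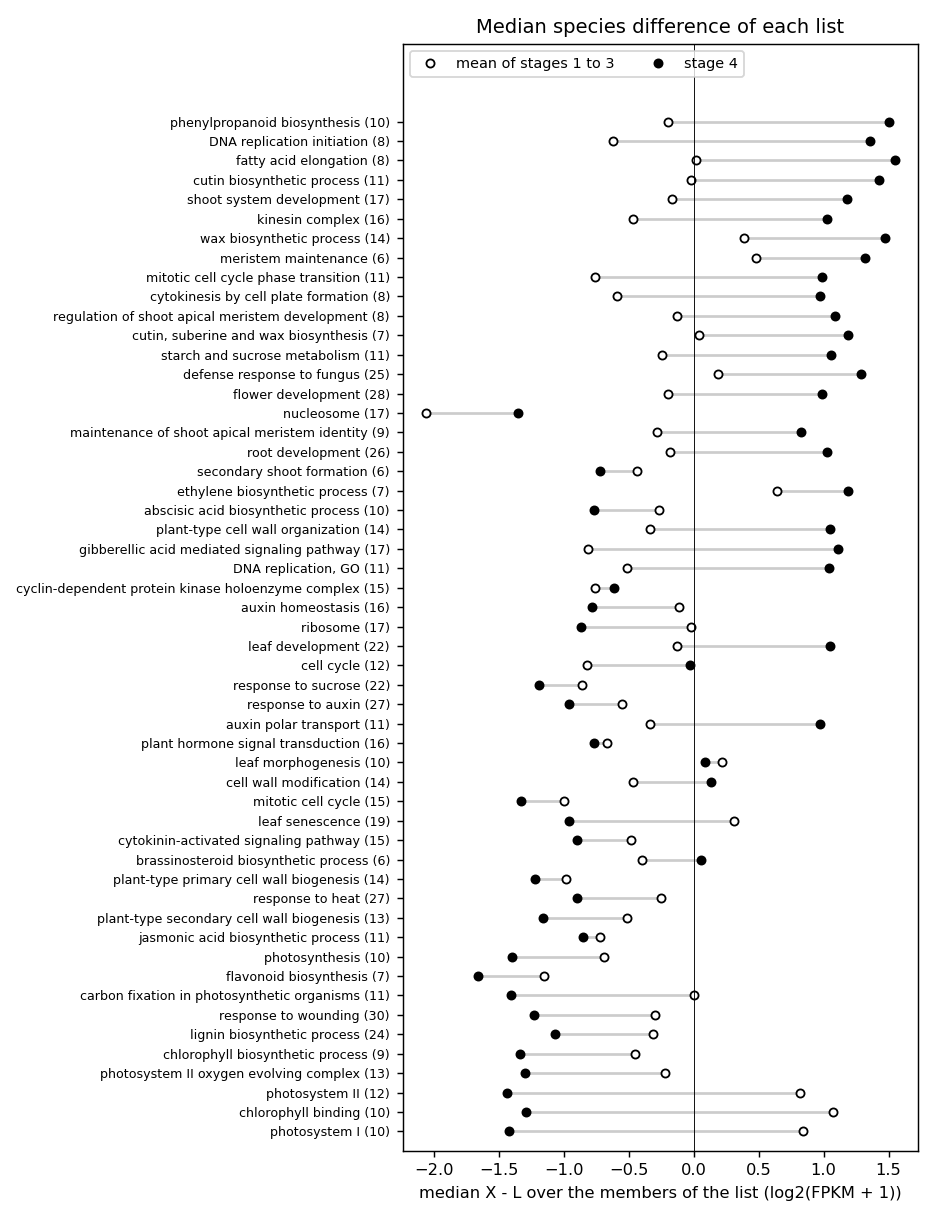
Median X − L difference, in log2(FPKM + 1), of each list with at least 6 members (number in brackets), over stages 1 to 3 (open) and at stage 4 (filled), ordered by the median change. Lists of the photosystems lie at the bottom, at about 0.8 to 1.1 before and −1.3 to −1.4 at stage 4, and lists of phenylpropanoids, replication initiation and fatty acid elongation lie at the top.

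Most listed genes of the photosystems were higher in X at stage 1 and lower at stage 4. Of the 10 members listed for photosystem I, which passes electrons to make NADPH, 5 were higher in X and none lower over stages 1 to 3 (median 0.84), and at stage 4 all 10 were lower (median −1.42). Chlorophyll binding, with 10 members that include light-harvesting proteins, gave 6 higher and none lower before (median 1.07) and 9 lower at stage 4 (median −1.29). Photosystem II, which splits water, gave 5 higher before and 11 of 12 lower at stage 4. The 3 lists share genes. The earlier excess was mostly that of stage 1, where 8, 7 and 8 members of photosystem I, chlorophyll binding and photosystem II were higher in X (medians 1.81, 1.60 and 1.60). At stage 2 none was higher and 1, 2 and 1 were lower (medians −0.07, 0.28 and −0.17), and at stage 3 the higher members were 3, 4 and 3 and the lower ones 1, 0 and 1 (medians 0.79, 1.00 and 0.75). In the test of the change itself, 10 of 10, 9 of 10 and 11 of 12 members were called toward L, none toward X. The counts at stage 4 rested on single libraries more than the directions did. Without L4 replicate 1 they fell to 3, 3 and 6 genes, and without X4 replicate 2 to 5, 3 and 5, while the medians stayed between −1.13 and −1.66. The counts of the change stayed at 7 or more, 6 or more and 9 or more. With median-ratio scaling the medians at stage 4 were −1.43, −1.31 and −1.45, and those before were 1.05, 1.28 and 1.02.

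In the photosystem genes both species moved, in opposite directions. Of the 10 photosystem I genes, 6 rose in L4 against the earlier L stages and none fell, and 5 fell in X4 against the earlier X stages and 1 rose. The summed FPKM of the 12 leaf marker genes, which are drawn from these lists, lay at 1662 to 3068 in L1 and 6232 to 7577 in L4, and at 5285 to 9772 in X1 and 2215 to 2684 in X4. The antenna gene NC3G0227450 was at 439 and 319 FPKM in L4 and at 211 and 163 in X4, while it had been at 95.5 to 190 in the earlier L and 265 to 669 in the earlier X libraries. Its difference went from 1.44 to −1.01 (change −2.45, SE 0.39, adjusted p = 8.63e-04), where the value at stage 4 was not called without L4 replicate 1 or X4 replicate 2 (adjusted p = 0.16 and 0.15). NC5G0051170, the chlorophyll binding gene furthest below the L-species, was at 715 and 696 in L4 and at 236 and 162 in X4 (change −2.99). Its call at stage 4 (−1.85, adjusted p = 0.0495) was lost when any 1 of 9 libraries was left out, with median-ratio scaling and with voom, and that of the change without L4 replicate 1, L4 replicate 2 or X4 replicate 2 (adjusted p up to 0.2 and 0.084).

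NC1G0107750, listed for photoprotection, was the member of both photosystem lists furthest below the L-species. It was at 198 and 862 FPKM in L4 and at 14.4 and 4.77 in X4, and at 0.515 to 6.50 in the earlier L libraries. The replicates of L4 lay far apart, and both were above both X4 values (log2 fold change −5.46, SE 0.65, adjusted p = 2.41e-05). The oxygen-evolving complex, the part of photosystem II where water is split, gave 10 of 13 members lower in X4 (median −1.30), 2 lower and none higher before (median −0.22), and 7 called for the change. The first count was 6 without X4 replicate 2, and the last was 3 without L4 replicate 1 or X4 replicate 2. NC9G0272520 of that list was low in X throughout, at 3.56 and 4.59 in L4 and 0.199 and 0.0823 in X4. In other lists of photosynthesis fewer members were called for the change. By the calls over the mean of stages 1 to 3, carbon fixation and chlorophyll synthesis also went from more members higher in X to more members lower. The KEGG list for photosynthesis, with 10 members, gave 2 higher and 4 lower in X before (median −0.69) and 2 higher and 8 lower at stage 4 (median −1.40), with 3 called for the change, all toward L (1 without X4 replicate 2). Carbon fixation gave 5 of 11 higher and 2 lower before and 4 higher and 6 lower at stage 4, with 1 called toward X and 3 toward L. Chlorophyll synthesis gave 4 of 9 higher and 2 lower before (median −0.45) and 2 higher and 6 lower at stage 4 (median −1.34), with 2 called toward L. At stages 1, 2 and 3 taken singly, 3, 3 and 2 of its members were higher and 3, 3 and 3 lower.

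The lists of replication and division did not move alike, and the genes listed for the start of DNA replication fell more in the L-species than in the X-species. Of the 8 members listed for replication initiation (the helicase and origin proteins that open DNA), 7 fell in L4 (median −2.62) and 3 in X4 (median −0.69). Over stages 1 to 3 the list gave 1 lower and none higher in X (median −0.62), and at stage 4 it gave 6 higher (median 1.36), 3 without X4 replicate 2 and 2 without L4 replicate 2. The change toward X was called in 7 of 8 and in 7 with any single library left out. NC5G0161210, a helicase, was at 5.75 and 5.50 FPKM in X4 and at 0.753 and 0.292 in L4, after 14.6 to 28.3 in L1 and L2 and 13.8 to 26.6 in X1 and X2. In X3 it had been at 3.19 and 2.53, so its values in X4 were above those in X3, while those in L4 were below L3 (1.33 and 3.41). Its difference was 2.14 at stage 4 and 0.02 before (change 2.12, SE 0.37, adjusted p = 1.47e-03). NC9G0114400 was at 4.94 and 7.33 in X4 and at 2.67 and 1.44 in L4 (1.23, adjusted p = 0.0118), a call lost without L4 replicate 2 or X4 replicate 2 (adjusted p up to 0.11).

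Kinesins, motor proteins of which many build the spindle and the cell plate, gave 8 of 16 members higher (5 without L4 replicate 2) and 3 lower in X4, and 1 higher and 3 lower before. The change was called toward X in 10, in 6 after median-ratio scaling, in 5 without X4 replicate 1 and in 6 without L4 replicate 2. NC6G0154590 was at 25.6 and 19.6 FPKM in X4 and at 1.64 and 2.56 in L4 (change 1.14), and the call of its change was lost with median-ratio scaling and without L4 replicate 1 or X4 replicate 1. In the opposite direction, NC6G0257440 was at 150 and 68.5 in L4 and at 6.82 and 4.37 in X4 (change −2.68). Mitotic phase transition gave 5 of 11 higher and 3 lower in X4 and none higher and 3 lower before, with the change called toward X in 5. The 5 higher at stage 4 became 2 without L4 replicate 2 and 3 without X4 replicate 2. Cyclin NC3G0223880, a regulator of the kinases that drive the cell cycle, was at 7.90 and 10.2 in X4 and at 0.765 and 0.294 in L4 (2.72, adjusted p = 1.32e-03), while NC1G0136320 of the same list was at 0.217 and 0.449 in X4 and 9.53 and 10.01 in L4.

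Other lists of division were split or lower in X4. The gene ontology list for DNA replication gave 6 of 11 higher and 4 lower in X4, against 1 higher and 5 lower before, with the change called toward X in 5 (3 without L4 replicate 2 or X4 replicate 2). The KEGG list for DNA replication, with 4 members, gave 3 higher and 1 lower both before and in X4, and limma called the change in 0 of 4 (0 at an unadjusted p under 0.05 and 0 with voom). The mitotic cell cycle gave 3 of 15 higher and 8 lower in X4 (median −1.33), against none higher and 8 lower before, with 4 called toward X and 2 toward L. The KEGG cell cycle list (12 members) and the list of the cyclin-dependent kinase complex (15 members) each gave 5 higher and 5 lower in X4, with 4 and 5 called toward X and 0 and 1 toward L. Without L4 replicate 2 the members higher in X4 were 1 in the mitotic, 3 in the KEGG and 2 in the kinase list, without X4 replicate 2 they were 3 in the kinase list, and without L4 replicate 1 the change toward L in the mitotic list was called in 1. Cell plate formation gave 4 of 8 higher and 2 lower in X4 and none higher and 3 lower before, with 3 called toward X.

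The nucleosome genes, among them histones, were mostly lower in X at every stage. Of the 17 members, 14 were lower in X and none higher over stages 1 to 3 (median −2.06), and 11 were lower and 2 higher in X4 (median −1.35). The change was called toward X in 6, in 4 after median-ratio scaling and in 2 with voom. NC2G0286220 was at 46.3 and 36.5 FPKM in L4 and at 0 and 0.0891 in X4, and at most at 0.258 in any X library. The 41 genes taken as markers of dividing tissue, which include the nucleosome list, summed to 1299 to 1434 FPKM in L4 and 829.6 to 865.6 in X4, with 6 of them at 0 in X4, and to 10162 to 13023 in L1 and 3049 to 3590 in X1. The share of dividing cells in the leaves was not tested.

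**Figure D5:**
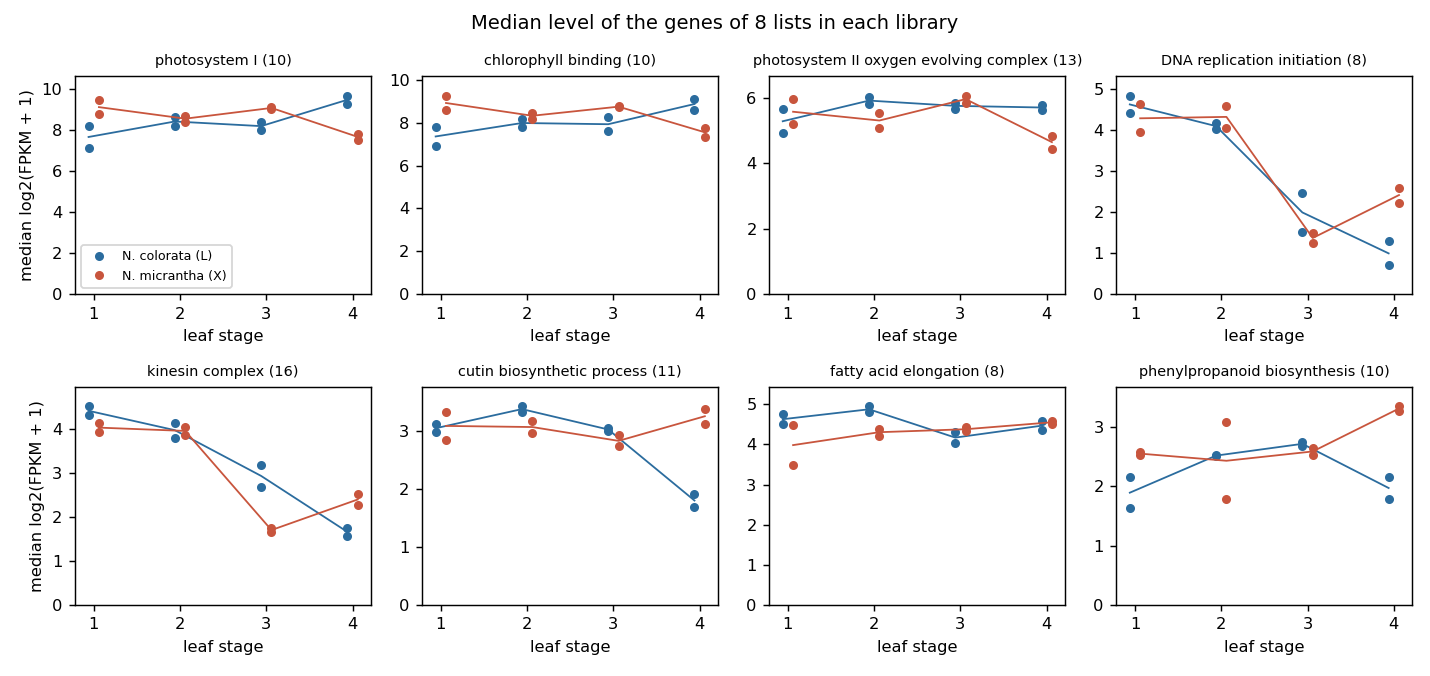
Median log2(FPKM + 1) of the members of 8 lists (number in brackets) in each library, against leaf stage. Points are single libraries and lines join the means of a group. The photosystem lists part with L above X at stage 4, and replication initiation, cutin and phenylpropanoids part with X above L.

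Of the lists for the leaf surface, those for cutin and wax synthesis held more genes higher than lower in X4. Cutin synthesis gave 8 of 11 members higher and 3 lower in X4 (median 1.43), against 1 in each direction before (median −0.02). The change was called toward X in 6 (4 without X4 replicate 2) and toward L in 1. In L4 5 of the 11 genes fell and none rose, and in X4 3 fell and 1 rose. NC12G0187130, an oxidoreductase listed for wax and cutin, was at 94.7 and 145 FPKM in X4 and at 2.26 and 2.23 in L4. In X its earlier values were 81.8 to 215, and in L it had been at 168 and 179 at stage 1 and at 37.8 and 47.8 at stage 3. Its difference was 5.19 at stage 4 (SE 0.29, adjusted p = 4.22e-08) and 0.48 before, and it fell by 4.78 in the L-species, against −0.07 in X. Wax synthesis gave 9 of 14 higher and 5 lower in X4 and 2 higher and 1 lower before, with the change called toward X in 7, or in 4 without X4 replicate 1. The KEGG list for cutin, suberine and wax, with 7 members, was close to even, at 4 higher and 3 lower in X4 (3 in each direction without L4 replicate 2) and none called before. On the other side stood NC6G0258260 of the cutin list, at 5.74 and 8.21 in L4 and 0.522 and 0.576 in X4, and NC1G0181800 of the wax list, at 8.87 and 7.73 in L4 and 2.12 and 2.57 in X4.

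Fatty acid elongation, which makes the long chains that wax is built from, gave 6 of 8 members higher and 2 lower in X4 (median 1.55), against none higher and 1 lower before (median 0.02). The change was called toward X in 6 and toward L in 2, and the 6 became 3 without L4 replicate 2 or X4 replicate 2. The elongating enzyme (3-oxoacyl-CoA synthase) NC1G0108160 was at 31.7 and 28.7 FPKM in X4 and at 1.73 and 1.59 in L4, after 10.4 to 20.5 in the earlier X and 5.62 to 13.4 in the earlier L libraries. It rose by 1.09 in X and fell by 2.01 in L, with all X4 values above and all L4 values below those of the earlier stages. NC2G0004230 of the same list had the reverse pattern, at 25.3 and 34.6 in L4 and 2.98 and 1.76 in X4 (change −1.94).

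Phenylpropanoids are the precursors of lignin and of many protective compounds. Their synthesis gave 7 of 10 members higher and 2 lower in X4 (median 1.5), against 2 higher and 1 lower before (median −0.20), and the change was called toward X in 6 and toward L in none. In the X-species 5 genes rose and 1 fell at stage 4, and in the L-species 1 rose and 2 fell. Peroxidase NC4G0051810 was at 7.30 and 10.8 FPKM in X4 and at 0.698 and 0.270 in L4 (change 2.95, SE 0.48, adjusted p = 9.21e-04). NC3G0226660, a hydroxycinnamoyltransferase of the lignin route, had no read in X4 and was at 1.96 and 1.16 in L4, at least 42.8-fold higher. Since it fell in L from 19.7 and 39.5 at stage 1, its change was positive (2.46). The call was lost with voom. The lists of the wall differed in direction. Lignin synthesis, of which only part of the list was readable, gave 8 of 24 higher and 14 lower in X4, primary wall synthesis 3 of 14 higher and 8 lower, and secondary wall synthesis 3 of 13 higher and 6 lower. Plant-type cell wall organization gave 7 of 14 higher and 5 lower (median 1.05), and cell wall modification 6 of 14 in each direction (median 0.13). NC11G0118700, a cellulose synthase, was at 43.3 and 74.1 in L4 and at 0.742 and 0.641 in X4, after 3.47 to 5.07 in the earlier L libraries (−5.09, SE 0.23, adjusted p = 8.32e-09). NC10G0043950, a pectinesterase that alters the pectin between cells, was at 10.8 and 19.4 in X4 and at 0.169 and 0.138 in L4, after at most 1.15 in the earlier X libraries (3.75, adjusted p = 4.81e-08).

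Lists of shoot and meristem development held genes on both sides at stage 4. Shoot system development gave 9 of 17 members higher and 5 lower in X4 (median 1.18), against none higher and 5 lower before (median −0.17), with the change called toward X in 10 and toward L in 1. NC4G0020470, listed also for secondary shoot formation, was at 3.80 and 4.36 FPKM in X4 and at 0.0201 and 0.0468 in L4, and at most at 0.431 in the earlier X libraries. It rose at stage 4 in the X-species by 2.01 on the log2 scale, against −0.13 in L (difference 2.30, SE 0.12, adjusted p = 2.84e-08). NC9G0172400 of the same list rose in both species, to 230 and 205 in L4 and 40.9 and 54.1 in X4, and stayed lower in X. Meristem maintenance gave 4 of 6 higher and 1 lower in X4 and none called before. NC11G0123640 of that list was at 11.4 and 12.9 in X4, at 0.512 and 1.20 in L4 and at most at 1.96 in the earlier X libraries. NC1G0131430 rose in both, to 29.2 and 26.9 in L4 and 9.36 and 7.54 in X4. The calls of the change for NC11G0123640 (2.06) and NC1G0131430 (−1.28) were lost with voom, and the latter also with a pseudocount of 0.1.

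The list for the maintenance of shoot apical meristem identity gave 4 members higher, 4 lower and 1 not called in X4, and 2 in each direction before. NC4G0237220 and NC12G0249520, both also annotated to petal development, were the genes of the list that rose in both species. NC4G0237220 was at 34.1 and 51.0 FPKM in X4 and at 6.34 and 8.70 in L4, and NC12G0249520 at 40.3 and 46.3 in X4 and at 11.3 and 12.7 in L4. Both had been higher in X before, and their change was not called (0.83 and 0.58, adjusted p = 0.0819 and 0.111). NC8G0124220 was at 77.9 and 79.2 in X4 and at 18.3 and 15.5 in L4, after 33.0 to 49.8 in the earlier X and 22.8 to 27.1 in the earlier L libraries (change 1.42, SE 0.20, adjusted p = 3.75e-04). NC11G0121700 was at 1.93 and 1.97 in X4 and 0.348 and 0.409 in L4 (change 1.69). NC10G0233010 was at 6.45 and 7.35 in L4 and 0 and 0.0677 in X4, and it did not pass 0.125 in any X library. The 12 genes of this list taken as shoot meristem markers summed to 194 to 223 FPKM in X4 and 144 to 155 in L4, with 3 of them at 0 in X4 and 1 in L4, against 79.7 to 135 in X1 and 103 to 104 in L1. Root markers (30 genes) summed to 575 to 640 in X4 and 565 to 599 in L4, and flower markers (30 genes) to 376 to 399 in X4 and 297 to 342 in L4. For root and flower only part of each list was readable. The part of these tissues in the results was not tested.

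Auxin directs organ formation through response factors (ARF) and early target genes such as SAUR. The list of hormone signalling gave 6 of 16 members higher and 4 lower in X4 (median −0.77), against none higher and 5 lower before (median −0.67), with the change called toward X in 6 and toward L in 1. The ARF gene is printed by the study as NC0286500, and NC2G0286500, a member of the hormone list, was taken for it, as the 1 ID of the table with the same last digits. NC2G0286500 was at 3.81 and 4.01 FPKM in X4 and at 0.302 and 0.181 in L4, after 0.431 and 0.117 in X3 and 0.550 and 1.27 in L3. Its difference was 1.98 at stage 4 and −0.55 before (change 2.53, SE 0.51, adjusted p = 3.11e-03). Of the SAUR genes, 4 were named, and they differed in direction. NC263970 was at 9.12 and 7.37 in L4 and at 0.0566 and 0.117 in X4 (−3.08, adjusted p = 6.50e-08), and it rose by 2.44 in the L-species, against 0.08 in X. NC9G0168130 was at 8 and 9.80 in X4 and at 2.29 and 2.53 in L4 (1.53, adjusted p = 1.22e-03), having fallen in both. The call of its change (1.36) was lost with voom and without L4 replicate 1 or X4 replicate 2. NC7G0235790 was at 19.3 and 18.2 in L4 and 9.37 and 5.31 in X4, as before (−1.28 at stage 4 and −1.52 before), and without X4 replicate 2 its size at stage 4 was under the threshold. NC14G0174900 rose in both, to 94.7 and 84.9 in L4 and 33.2 and 53.6 in X4, and was not called between them (−1.07, adjusted p = 0.151), although it was with voom.

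Of the other hormone genes, NC1G0179090, annotated to jasmonate signalling, was at 22.1 and 27.3 FPKM in X4 and at 2.07 and 2.72 in L4, and it rose by 1.49 in the X-species (change 2.35, SE 0.24, adjusted p = 4.52e-05). NC9G0170260, a defence gene of the pathogenesis-related type, was at 3.29 and 1.44 in X4 and at 0.654 and 0.0469 in L4. It was not called at stage 4 (1.30, adjusted p = 0.0535), but since it had been lower in X before (−2.0) its change of 3.30 was. NC13G0298710 was at 1.48 and 1.40 in X4 and at 0 in both L4 libraries, at least 11.2-fold higher, and NC8G0240630 at 6.17 and 5.53 in L4 and at 0 in both X4 libraries, at least 105-fold higher in L4.

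Cytokinin, the hormone that promotes shoot formation and cell division, is sensed by histidine kinases and relayed by phosphotransfer proteins. The list of cytokinin signalling gave 4 of 15 members higher and 7 lower in X4 (median −0.90), against 1 higher and 4 lower before (median −0.48). The change was called toward L in 3 and toward X in none. The 3 were NC1G0133020, NC6G0039670 and NC9G0113670. NC1G0133020, annotated also to circadian rhythm and gibberellin, fell in X by 3.14 (−0.50 in L), to 4.42 and 1.91 FPKM in X4 against 17.1 and 42.3 in L4. Phosphotransfer gene NC6G0039670 rose in both, to 82.5 and 139 in L4 and 26.8 and 20.4 in X4 (change −1.67). NC9G0113670 was at 6.34 and 9.58 in L4 and 1.27 and 0.924 in X4, and its change (−1.32) was not called without L4 replicate 2 or X4 replicate 2. NC8G0060080 was at 13.5 in both L4 libraries, at 0.0511 and 0 in X4 and without a read in the earlier X libraries. One gene of cytokinin breakdown, the cytokinin dehydrogenase NC6G0041110, from a list of 2 members, was at 13.6 and 23.5 in X4 and at 2.37 and 1.58 in L4 (2.68, SE 0.54, adjusted p = 1.33e-03), and the call of its change (2.04) was lost with voom and without L4 replicate 1, L4 replicate 2 or X4 replicate 2.

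Abscisic acid, which restrains growth and germination, is cut from carotenoids by 9-cis-epoxycarotenoid dioxygenase. The list of abscisic acid synthesis was split, with 4 of 10 members higher and 4 lower in X4 (median −0.77), against 2 higher and 3 lower before. Its change was called toward X in 5 and toward L in 2. NC12G0097500, listed with that activity, was 1 of the 3 genes seen in X4 only, at 5.08 and 2.59 FPKM there, 0.0120 and 0 in L4, and without a read in 11 of the earlier 12 libraries. Its difference was 2.22 (SE 0.19, adjusted p = 1.49e-06). NC7G0246510, a dioxygenase listed for leaf senescence, was the counterpart in the L-species, at 13.3 and 12.7 in L4, at 0 in X4 and at most at 0.0231 in any earlier library, at least 162-fold higher in L4. Sucrose synthase NC1G0088830 rose in both species, to 83.3 and 195 in L4 and 48.6 and 25.7 in X4. It had been higher in X before (1.39) and was lower at stage 4 (−1.82), a call lost with a pseudocount of 0.1 and without L4 replicate 2 or X4 replicate 2.

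Of the 7 genes that were among the 5 most expressed in X4 or L4, 2 were called between the species. NC3G0227630, the first in X4, was at 7459 and 7759 FPKM in X4 and 5636 and 6757 in L4, and was not called (0.30, adjusted p = 0.600). NC10G0165680, of methionine and one-carbon metabolism, was at 5246 and 7048 in X4 and 2204 and 2309 in L4 (1.43), a call lost without X4 replicate 2 (adjusted p = 0.052). Defence gene NC9G0173960 was at 4555 and 6301 in X4 and 1112 and 664 in L4 (2.64), and it was higher in X before too. NC7G0247280, annotated as RuBP carboxylase, which fixes carbon dioxide, was the first in L4, at 13168 and 11311, and at 6134 and 4816 in X4. It had been at 38950 and 39955 in X3. Its change of −2.33 (adjusted p = 0.0436) was lost when any 1 of 11 libraries was left out, and at stage 4 it was not called. NC5G0050660 rose in both, to 8582 and 9303 in L4 and 6179 and 5414 in X4, and its change (−1.09) was lost when any 1 of 9 libraries was left out. NC2G0004400, at 6824 and 9057 in L4 and 4956 and 3725 in X4, and NC11G0302260, at 6571 and 4448 in L4 and 5012 and 4343 in X4, were not called at stage 4 but had been higher in X before, by 2.39 and 2.04. The change of the latter was lost without L4 replicate 1 or X4 replicate 2.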

How the data were processed

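Leaf RNA of 2 species at 4 stages was sequenced by the authors, 16 libraries, 2 for each species and stage. The study describes 3 biological repeats, of which 2 are analysed here. It describes plants selected for each species and their leaves mixed for each sample, so the libraries of a species may share plants. Whether same-numbered repeats share days is not given in the sources used here. The p-values measure the spread between these libraries, which may leave out differences between plants. The submitters' processing notes name CASAVA 1.8, fastp 0.20.0, HISAT2 2.1.0, HTSeq 0.7.2, Cufflinks 2.2.1 and DESeq, while the study's methods name NGS QC Toolkit, a Trinity assembly, htseq-count and cufflinks. The genome behind the gene IDs is not given in the sources used here, and 0 of the IDs matched the reference gene table. The deposited values are FPKM, reads per gene divided by gene length and library total, with no scaling between libraries. In these values 100.00% of those above 0 were whole reads (tolerance 1e-05), which gave the reads per gene. 0 columns of values were left unmapped.

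A gene entered the tests where 2 or more of the 16 libraries reached an FPKM of 1. The tests used limma 3.58.1 (R 4.3.3; lmFit, and eBayes with trend) on log2(FPKM + 1), with 8 group means and no covariate (8 residual degrees of freedom). With 2 libraries a group the spread is shared by all groups. The pseudocount of 1 draws the fold changes of low genes toward 0. Lower bounds on a fold are given only where both libraries of a species had 0 reads, against 3 reads in each library, and cover counting error only. On simulated data with 200 of 17089 genes changed in X4, X4 against L4 called 99.5% of the changed genes and 0 others. The contrast of stage 4 with the other stages called 200 and 2 others. The simulation gave all other genes equal means in every group and used the same dispersion for all genes. Only genes above a minimum expression were changed. It checks the calculation and does not give the error rate of the calls in the real libraries.

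The genes named include the 5 highest and lowest among those called at stage 4 and in the stage 4 contrast. The 5 most expressed in X4 and L4 and the 5 in each direction whose sign turned are named too. For some lists the largest or the smallest called member, or both, are named. Some of the extreme genes over all lists together, such as NC10G0043950, were added, so a named gene need not be the extreme of its list. Others are genes that the study prints by ID (1 matched by its last digits) and some seen at stage 4 of 1 species only. Members of the 4 lists on meristem identity, cytokinin, DNA replication and hormone signalling could be named too. Lists given by counts alone, DNA replication among them, have no gene named for them. The members, lists and rules were chosen with earlier results of these data known. Alternatives were pseudocount 0.1, no filter, restriction to genes found in each species, scaling by median ratios, the replicate number as a block, only the stage 4 libraries, unadjusted p and each library left out. The crossed block, the list counts without each library, and voom on the recovered reads with library totals times the median-ratio factors were chosen after seeing the data. Other calculations used Python 3.11.15, numpy 2.4.6, pandas 2.3.3 and matplotlib 3.10.9. The authors' fold changes and p-values and the qRT-PCR data were not used.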

Additional observations from a re-analysis of the deposited data

Results flagged for a closer look

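The test of the X − L difference at stage 4 against that of stages 1 to 3 in limma marked 3179 member genes as differing between stages. The values of the named genes in that test are given here as log2 changes of the difference, positive where it moved toward the X-species. Each rests on the 2 libraries of each stage 4 group, and where a call was lost without a single library the report says so.

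Among genes without an annotated function, the changes were NC8G0214130 at −10.95, NC2G0005110 at −10.23, NC8G0214140 at −9.32, NC11G0014860 at −1.39, NC1G0181880 at 6.48, NC11G0244170 at −7.48, NC1G0089810 at −6.25, NC5G0050660 at −1.09, NC2G0004400 at −3.26, NC11G0302260 at −2.25, NC1G0180250 at −4.98, NC4G0152490 at −3.81, NC2G0053480 at −3.81, NC9G0111740 at 5.85, NC1G0018370 at −1.76, NC1G0135570 at 2.93 and NC2G0009270 at 1.5. Among genes of the photosystems and carbon fixation, the changes were NC5G0051170 at −2.99, NC3G0227450 at −2.45, NC1G0107750 at −5.04 and NC7G0247280 at −2.33. Among genes of replication, division and the nucleosome, the changes were NC5G0161210 at 2.12, NC9G0114400 at 1.86, NC6G0154590 at 1.14, NC6G0257440 at −2.68, NC3G0223880 at 3.48 and NC2G0286220 at 1.39. Among genes of wax, cutin, fatty acid elongation, phenylpropanoids and the wall, the changes were NC12G0187130 at 4.70, NC6G0258260 at −1.61, NC1G0108160 at 3.10, NC2G0004230 at −1.94, NC4G0051810 at 2.95, NC3G0226660 at 2.46, NC11G0118700 at −3.45, NC10G0043950 at 3.51 and NC2G0009810 at 6.77. Among genes of shoot and meristem lists, the changes were NC4G0020470 at 2.14, NC11G0123640 at 2.06, NC1G0131430 at −1.28, NC8G0124220 at 1.42 and NC11G0121700 at 1.69. Among genes of hormone signalling and hormone metabolism, the changes were NC2G0286500 at 2.53, NC263970 at −2.36, NC9G0168130 at 1.36, NC1G0179090 at 2.35, NC9G0170260 at 3.30, NC13G0298710 at 1.18, NC1G0133020 at −2.64, NC6G0039670 at −1.67, NC9G0113670 at −1.32, NC6G0041110 at 2.04, NC12G0097500 at 2.21 and NC9G0111700 at 6.57. Among genes of other functions, the changes were NC11G0015970 at 7.54, NC1G0106420 at 7.30, NC1G0133610 at 6.85, NC2G0037030 at −4.36, NC2G0006900 at −3.98, NC10G0142960 at 5.61, NC11G0123120 at 5.44, NC1G0088830 at −3.21 and NC7G0246510 at −3.81. The changes of NC2G0286220 and NC3G0226660 were not called with voom, and that of NC2G0286220 not with a pseudocount of 0.1.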

How the results depend on the processing

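The counts of member genes at stage 4 (5564) and in the contrast of stage 4 with the other stages (3179) stayed within 1.5 times under every alternative run. With only genes detected in both species, the members lower in X4 were 2060, those called over stages 1 to 3 were 2676, and the contrasts of stage 2 and stage 3 called 1.01% and 1.64% of the members (2.0% and 2.48% otherwise). With voom, tried after seeing the data, those contrasts called 1.0% and 0.93%, and at an unadjusted p 4.72% and 5.23%. The genes with opposite signs, 85 in all, were 166 with pseudocount 0.1 and 139 with voom. The causes were not tested. The planned voom fit with TMM factors was not run. The share of calls toward X, which turned with the scaling, is given with the counts.

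Leaving out each library in turn gave 5208 to 5614 calls at stage 4 (2050 to 2219 higher and 3158 to 3404 lower), 2419 to 3423 in the stage 4 contrast (1529 to 2054 and 890 to 1369), 3944 to 4212 over stages 1 to 3, 2799 to 3166 within X, 3851 to 4338 within L, and 66 to 112 with opposite signs. For the contrasts of stages 1, 2 and 3 the ranges were 2.86% to 11.9%, 0.648% to 4.91% and 0.486% to 4.22% of the members. Of the named genes, 66 of the 72 called at stage 4 and 53 of the 62 called in the stage 4 contrast kept the call with each library left out, and 66 and 48 kept it under the other settings too. No named gene reversed.

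Same-numbered libraries of the species deviated with correlations of −0.149, −0.492, −0.013 and −0.126 at stages 1 to 4, none of them positive. Each value rests on a single difference between libraries per species. It cannot tell whether same-numbered libraries share plants or days. With the replicate number as a block, 5549 and 3143 genes were called, and 3127 of the latter were shared. With the numbers crossed, the counts were 5578 and 3205. The number of reads counted on genes limits low genes, since a member had a median of 575 reads in X4.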

Other observations

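Several lists belong to no comparison of the report. Carotenoid synthesis had 3 members, all higher in X4, of which 1 was higher over stages 1 to 3. The starch and sucrose list gave 6 of 11 members higher and 2 lower in X4 (median 1.06), against 2 higher and 1 lower before (median −0.24). Ribosome genes, with 17 members, gave 7 higher and 8 lower in X4 and 1 higher and 5 lower before. Leaf senescence gave 6 of 19 higher and 8 lower in X4 (median −0.96), against 3 higher and 5 lower before (median 0.31), and 4 called toward L in the change and none toward X. Response to wounding, of which only part of the list was readable, gave 8 of 30 higher and 16 lower in X4, with 7 called toward L and 1 toward X. In it 13 genes rose in L4 and 7 in X4. Defence against fungi, also a partial list, went the other way, with 14 of 25 higher and 9 lower in X4 and 12 rising in X4 against 7 in L4. These lists come from the same tables, and their counts in X4 are descriptions.

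Of the 13 genes seen in L4 only, NC8G0214140 and NC7G0246510 are described with the results. NC10G0043390 and NC10G0043380, with neighbouring IDs, were at 43.5 and 23.7 and at 14.5 and 16.4 FPKM in the L4 libraries, and NC2G0002870 was at 10.8 and 19.3. The other 8 did not pass 7.59 FPKM.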
